A study of Mus musculus with 4 samples.

Results

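The genes described here are 35 interferon and major histocompatibility complex (MHC) class I response genes, among 32285 genes counted in each library. They were chosen by name. The type I group holds 19 members (Isg15, Ifit1, Ifit2, Ifit3, Irf7, Irf9, Stat2, Oasl2, Oas1a, Usp18, Rsad2, Rtp4, Bst2, Ifi27l2a, Ifitm1, Ifitm3, Xaf1, Ddx58 and Ifih1). The type II and class I group holds 16 (Irf1, Gbp2, Gbp3, Gbp7, Igtp, Irgm1, B2m, H2-K1, H2-D1, Tap1, Tap2, Tapbp, Psmb8, Psmb9, Nlrc5 and Cxcl10). All 35 were found in the count matrices. They were measured by single-cell RNA-Seq of Lineage-, Sca-1+, cKit+ (LSK) bone marrow cells of C57BL/6 mice, the fraction that holds hematopoietic stem cells (HSCs) and multipotent progenitors. The Sin3B+/+ cells came from Sin3B F/F mice, which carry floxed alleles and no Cre. The Sin3B-/- cells came from Sin3B F/F mice with Vav1-iCre, whose promoter is active throughout the blood lineage from the embryo onwards, so these cells had developed without Sin3B. One library was made from untreated mice at homeostasis and another from mice given a single intraperitoneal dose of 100 mg/kg 5-fluorouracil (5-FU) 9 days before harvest. 5-FU kills dividing progenitors and calls stem cells into division. In each library cells of 2 mice per genotype were pooled, and the 2 genotypes were marked by hashtag antibodies and loaded together. The homeostasis mice were male per the study's methods, and the ages were not given in the sources used here.

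Type I interferons (the alpha and beta interferons) signal through the receptor chains Ifnar1 and Ifnar2 to a transcription factor complex that includes STAT2 and IRF9. This complex binds the interferon-stimulated response element (ISRE) and switches on antiviral effectors such as the Ifit, Oas and Isg15 genes. Type II interferon (interferon gamma) signals through Ifngr1 and Ifngr2, and its response runs through the gamma-activated site (GAS). Its targets include Irf1, the guanylate-binding proteins (Gbp), the immunity-related GTPases (Igtp, Irgm1) and the machinery that loads peptides on class I molecules. The division is not strict, since most of these genes answer to both kinds of interferon. In the bone marrow, interferons act directly on stem cells and can bring them out of quiescence. Sca-1, encoded by Ly6a and used for the sort, is itself induced by interferon, so that cells were gated on a gene of this response.

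After filtering, the homeostasis library held 10329 Sin3B+/+ and 4139 Sin3B-/- cells with medians of 6990 and 6616 unique molecular identifiers (UMIs) per cell. The 5-FU library held 4884 and 3313 cells with medians of 9303 and 10954 UMIs. Each genotype was thus 1 pool per condition, no replicate error could be estimated, and no test was made. Levels are given as CPM, the UMIs of a gene scaled to the total UMIs of its pool (counts per 1e6). Differences are given as the log2 ratio of Sin3B-/- over Sin3B+/+ with a 95% interval that covers counting error only. A member is called higher or lower where the ratio reached 1.5-fold and the pools held at least 50 UMIs together. The 2 conditions were 2 libraries, so condition and library cannot be told apart, and gene levels were not compared between them. Sin3b itself, the deleted gene, was at 81.8 CPM in Sin3B+/+ and 23.2 CPM in Sin3B-/- cells at homeostasis, and at 112 and 15.1 CPM after 5-FU. The reads lie at the 3′ end of the transcript and need not come from the deleted exons. The source of the Sin3b counts left in Sin3B-/- cells was not tested. Kit and Ly6a, which encode the cKit and Sca-1 of the sort, and the blood and progenitor markers Ptprc and Cd34 were at 75.4 CPM or more in every pool. Clusters were named from marker genes fixed for 4 classes, and the interferon genes were left out of the clustering. Cells called long-term HSC (LT-HSC)-like numbered 1232 Sin3B+/+ and 915 Sin3B-/- at homeostasis (11.9% and 22.1% of their genotype) and 1374 and 1132 after 5-FU (28.1% and 34.2%). A further homeostasis cluster raised all 9 LT-HSC markers, but the endothelial gene Cldn5 was among its leading genes and it was left unnamed. It held 2.45% of the Sin3B+/+ and 7.37% of the Sin3B-/- cells.

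To show what the members share beyond their names, the stretch from 250 bases before to 50 bases after each RefSeq transcription start (GRCm38.p6) was searched for the letters of both elements. The ISRE was written GAAANNGAAA and searched on both strands, and the GAS was written TTCNNNGAA, which reads the same on both strands. Of the 35 members, 30 were matched by symbol. An ISRE match was present in 17 of the 30 (56.7%), against 1079 of all 27025 genes (3.99%). It was found in 10 of 16 type I members and in 7 of 14 type II and class I members. A GAS match was present in 8 of the 30 members (26.7%), against 9.55% of all genes. Both elements were present for Bst2, Gbp7, Ifitm3, Igtp and Oas1a. A match of letters is a description and not a site shown to be bound. Matches are printed for some of the members whose values are given below, and those of others, such as Ifit3, Ifitm3 and Ifih1, are not. The following stretches run 5′ to 3′ on the strand of the gene, with the match in capitals.
Isg15, chr4:156200871-156200900, minus strand, ISRE: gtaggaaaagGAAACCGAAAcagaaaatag
Ifit1, chr19:34640775-34640804, plus strand, ISRE: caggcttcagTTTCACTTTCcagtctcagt
Bst2, chr8:71537577-71537606, minus strand, ISRE: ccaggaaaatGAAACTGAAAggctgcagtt
Bst2, chr8:71537590-71537618, minus strand, GAS: tctaggggcaTTCCAGGAAaatgaaactg
Gbp2, chr3:142620594-142620623, plus strand, ISRE: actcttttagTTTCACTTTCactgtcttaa
Igtp, chr11:58199512-58199541, plus strand, ISRE: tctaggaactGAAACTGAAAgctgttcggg
Irf1, chr11:53769914-53769942, plus strand, GAS: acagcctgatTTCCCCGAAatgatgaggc
B2m, chr2:122147538-122147567, plus strand, ISRE: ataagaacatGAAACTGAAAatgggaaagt
Cxcl10, chr5:92349083-92349112, minus strand, ISRE: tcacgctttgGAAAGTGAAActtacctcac
Psmb8, chr17:34198088-34198116, plus strand, GAS: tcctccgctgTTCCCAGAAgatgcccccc
The Isg15 match was 1 of 3 that overlapped, and the Bst2 ISRE match overlapped a second one 6 bases upstream. H2-K1, H2-D1, Tap1, Tapbp and Psmb9 held no match to either string of letters in this window, nor did Xaf1, Irf7, Irf9, Oasl2 and Ifitm1. Sites that depart from these letters are missed by this search. The H2-K1 and H2-D1 windows, for example, hold agtttcacttct, which differs from the ISRE letters searched, so an element is not shown to be absent. Ifi27l2a, Rtp4, Usp18, Nlrc5 and Tap2 were not matched.

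At homeostasis the type I genes did not move together between the genotypes. Bst2 and Ifi27l2a were lower in Sin3B-/- cells. Xaf1 and Ifih1 lay somewhat above their Sin3B+/+ level, and Isg15, Ifit1 and Ifit2 lay close to it. Irf7 lay below and Ifit3 above its Sin3B+/+ level, with log2 ratios of -0.25 and 0.57 and intervals that left out 0. Bst2 encodes tetherin, which holds budding virus particles at the cell surface. Its level over all kept cells was 78.6 CPM in Sin3B+/+ and 38.1 CPM in Sin3B-/- cells, a log2 ratio of -1.04 (-1.13 to -0.96). Bst2 lies at chr8:71534255-71537456 (GRCm38), 1.19 megabases from Sin3b on the same chromosome. Ifi27l2a, a small mitochondrial protein gene induced by interferon, was at 32.0 and 16.1 CPM, a ratio of -0.99 (-1.13 to -0.86). In near-empty barcodes of this library, which carry free RNA, Bst2 was at 55.0 and Ifi27l2a at 31.7 CPM, and the part of free RNA was not tested. Over all kept cells, 34 of the 35 members reached 50 UMIs. Bst2 and Ifi27l2a were the 2 lower members, where 5.10% of 15553 genes were lower, and Cxcl10 was the 1 higher member, where 5.53% of genes were higher. Against these shares neither count set the members apart from genes as a whole.

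The other type I members stayed within 1.5-fold. Rtp4, a receptor-transporting protein with antiviral activity, was at 34.1 and 26.1 CPM (-0.39, -0.50 to -0.28), and Oas1a, which makes the 2′-5′ oligoadenylate that activates RNase L, was at 16.5 and 12.3 CPM (-0.42, -0.59 to -0.26). The other 4 members of the group, Ifit2, Oasl2, Usp18 and Rsad2, had ratios between -0.23 and 0.11. In the opposite direction, Xaf1, a gene linked to cell death, was at 30.1 and 42.2 CPM (0.49, 0.39 to 0.58). Ifih1, the cytosolic sensor MDA5 of long double-stranded RNA, was at 31.4 and 38.3 CPM (0.29, 0.19 to 0.38). Ddx58, the related sensor RIG-I, was at 53.2 and 54.6 CPM with an interval that held 0. Isg15, a ubiquitin-like modifier, was at 12.1 and 11.3 CPM (-0.10, -0.27 to 0.08). Ifit1, which binds foreign RNA caps, was at 10.4 and 9.66 CPM (-0.11, -0.30 to 0.08). Irf7, the factor that amplifies type I interferon production, was at 10.6 and 8.94 CPM (-0.25, -0.44 to -0.05). Stat2 and Irf9, members of the ISRE-binding complex, had ratios of -0.06 and -0.02 with intervals that held 0. Ifit3 was at 90 and 51 UMIs (0.57, 0.04 to 1.08), and reads shared with its near-identical copy Ifit3b make its count uncertain. The abundant membrane proteins Ifitm1 and Ifitm3, which block virus entry, were at 885.7 and 987.5 CPM and at 451 and 442 CPM. The 19 type I members had a median ratio of -0.06, with a median interval half-width of 0.12, beside a median of 0.01 over all genes tested. Without Ifitm1 and Ifitm3, which hold most of the counts, the 17 core type I members summed to 463 CPM in Sin3B+/+ and 406 CPM in Sin3B-/- cells (-0.19, -0.22 to -0.16). Nearly all of that gap was the sum of the gaps of Bst2 and Ifi27l2a. All 19 type I members, Ifitm1 and Ifitm3 included, summed to 1799 and 1835 CPM (0.03, 0.01 to 0.04).

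**Figure D1:**
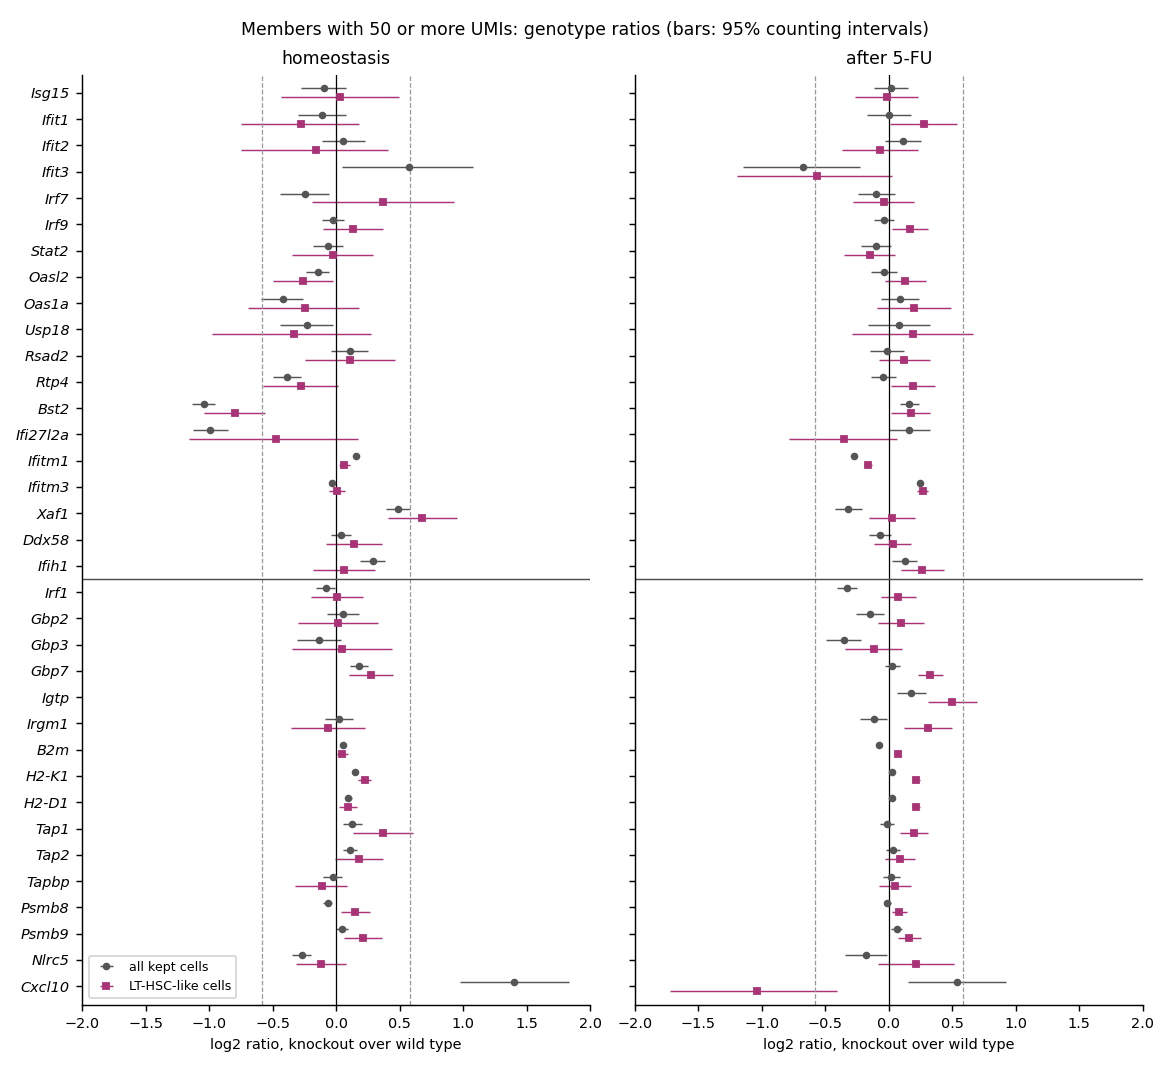
Log2 ratio of Sin3B-/- (knockout) over Sin3B+/+ (wild type) for each member with 50 or more UMIs, at homeostasis (left) and after 5-FU (right), in all kept cells (grey circles) and LT-HSC-like cells (purple squares). Bars are 95% counting intervals, dashed lines mark 1.5-fold, and the horizontal line parts type I members (above) from type II and class I members (below). Bst2 at homeostasis lay left of the dashed line in both pools, at -1.04 and -0.80, and right of 0 after 5-FU, at 0.16 and 0.17.

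The lower level of Bst2 at homeostasis was found in every cluster large enough to compare. Over the 14 homeostasis clusters with at least 20 cells of each genotype, Bst2 was lower in Sin3B-/- cells in 14, and the counting interval lay below 0 in 13. Its levels ran from 40.9 to 117 CPM over the Sin3B+/+ clusters and from 20.9 to 61.5 CPM over the Sin3B-/- clusters. Ifi27l2a was also lower in 14 of 14 clusters, with the interval below 0 in 6. Its level varied more between clusters than between genotypes, from 4.43 to 185 CPM in Sin3B+/+ cells. Rtp4 was lower in 13 of 14 clusters, and the exception was the unnamed cluster with Cldn5, at 25.4 and 27.9 CPM. Xaf1 was higher in 13 of 14, and the exception held 37.9 and 36.9 CPM from 37 and 6 UMIs. Nlrc5, the transactivator of class I genes, was lower in 12 of 14. Isg15 was lower in 8 of 14 and higher in 6, with the interval below 0 in 1. The clusters of a genotype share 1 pool of mice and are not replicates.

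**Figure D2:**
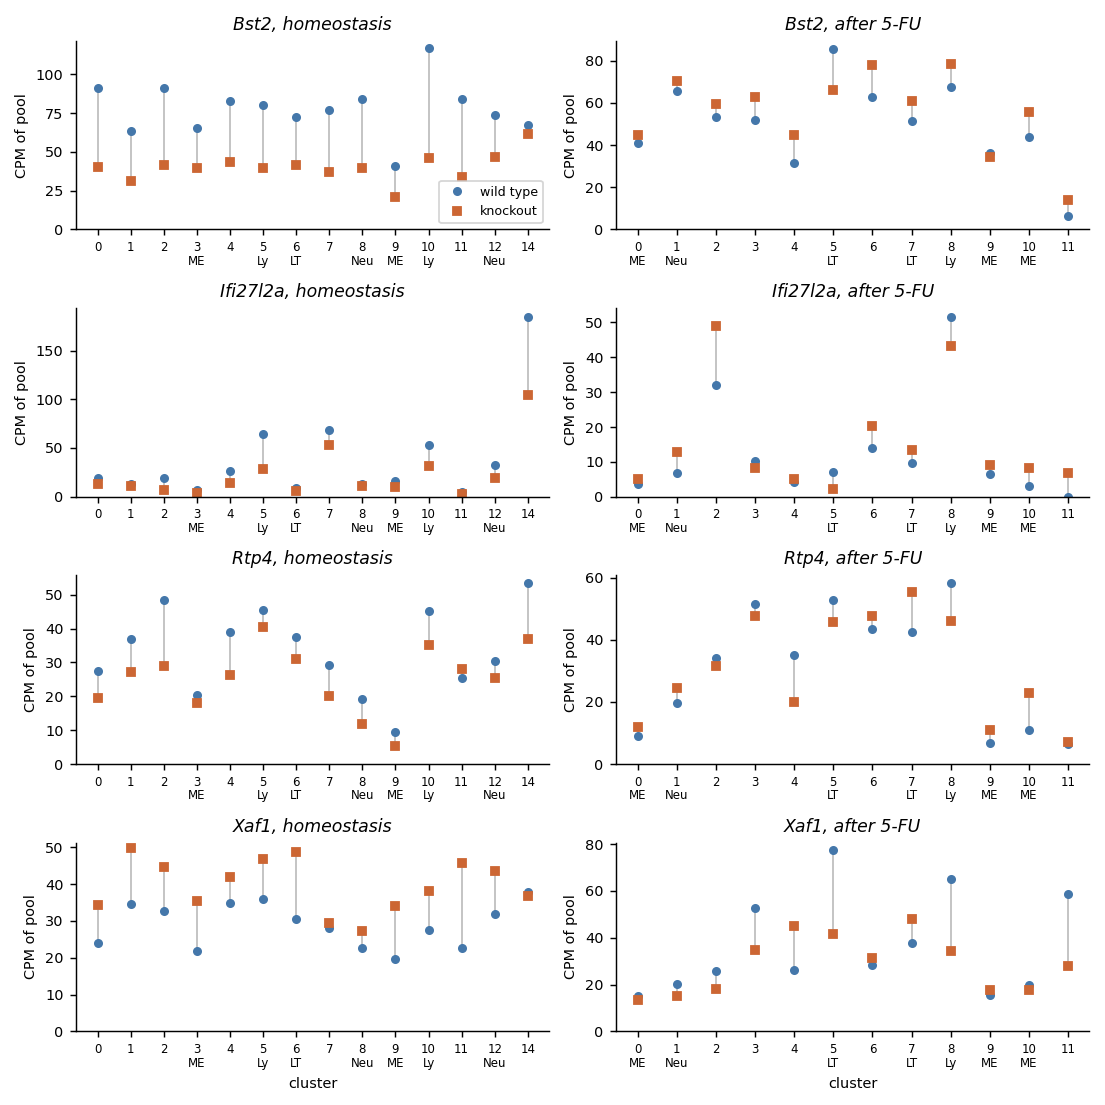
Level of Bst2, Ifi27l2a, Rtp4 and Xaf1 (CPM of the pool) in Sin3B+/+ (wild type, blue circles) and Sin3B-/- (knockout, orange squares) cells of each cluster at homeostasis (left) and after 5-FU (right). Cluster numbers are separate in each condition, and the marks below them give the named classes (LT, LT-HSC-like; ME, megakaryocyte-erythroid primed-like; Neu, neutrophil primed-like; Ly, lymphoid primed-like). At homeostasis Bst2 was lower in Sin3B-/- cells in 14 of 14 clusters, and after 5-FU it was lower in 2 of 12.

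Apart from Cxcl10, described below, the type II and class I members tested at homeostasis had ratios between -0.27 and 0.18. B2m, the light chain of every class I molecule, was at 1324 and 1371 CPM (0.05, 0.03 to 0.07). The class I heavy chain genes H2-K1 and H2-D1 were at 889.5 and 985.9 CPM (0.15, 0.13 to 0.17) and at 479.6 and 512 CPM (0.10, 0.07 to 0.12). Tap1, a subunit of the transporter that feeds peptides to class I, was at 59.0 and 64.5 CPM (0.13, 0.05 to 0.20). Psmb8, an immunoproteasome subunit that trims those peptides, was at 263 and 251 CPM (-0.07, -0.10 to -0.03). Irf1, the factor downstream of the GAS element, was at 59.1 and 55.7 CPM (-0.08, -0.16 to -0.01), and Gbp2 was at 22.5 and 23.4 CPM (0.06, -0.07 to 0.18). Nlrc5 was at 72.5 and 60.1 CPM (-0.27, -0.35 to -0.20), the largest difference towards Sin3B+/+ cells in this group. Those of Gbp3, Gbp7, Irgm1, Tap2, Tapbp and Psmb9 lay between -0.13 and 0.18. Igtp had 19 and 5 UMIs and was too rare to call. The 15 members that reached 50 UMIs had a median ratio of 0.05. H2-K1, H2-D1, Irf1 and Tapbp were at higher levels in near-empty barcodes than in cells. The class I chains summed to 2693 and 2869 CPM (0.09, 0.08 to 0.10). By class, the ratio of these sums was -0.05 (-0.08 to -0.01) in neutrophil primed-like and -0.02 (-0.05 to 0.01) in lymphoid primed-like cells. It was 0.10 (0.05 to 0.14) in megakaryocyte-erythroid primed-like, 0.12 (0.09 to 0.15) in LT-HSC-like and 0.08 (0.06 to 0.09) in unnamed cells.

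Cxcl10, a chemokine that draws T cells and a textbook target of both interferons, was higher in Sin3B-/- cells but in very few of them. It was at 1.10 CPM in Sin3B+/+ and 2.92 CPM in Sin3B-/- cells (1.40, 0.97 to 1.83). These levels came from 93 UMIs in 30 Sin3B+/+ cells and 94 UMIs in 18 Sin3B-/- cells. The 5 cells with most Cxcl10 held 62 of the 93 and 72 of the 94 UMIs. A single Sin3B+/+ cell held 34. In near-empty barcodes Cxcl10 was at 14.2 CPM from 22 UMIs, above the 1.61 CPM of the cells. The part of free RNA in its difference was not tested. Ifit3, of like abundance, had its 90 and 51 UMIs in 69 and 36 cells, so it was spread more widely.

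In LT-HSC-like cells at homeostasis Bst2 was lower, as in the whole fraction, and Xaf1 was past 1.5-fold as well. Bst2 was at 72.3 CPM in Sin3B+/+ and 41.5 CPM in Sin3B-/- cells (-0.80, -1.04 to -0.56), and Xaf1 was at 30.4 and 48.7 CPM (0.68, 0.40 to 0.95). These were the 1 lower and the 1 higher of 32 members that reached 50 UMIs, where 4.21% and 3.04% of 11247 genes were lower and higher. Isg15 was at 13.9 and 14.2 CPM, Ifit1 at 15.5 and 12.8 CPM, Irf7 at 8.49 and 11.0 CPM and Gbp2 at 29.8 and 30.1 CPM, and the interval of each ratio held 0. Irf1 was at 69.9 and 70.2 CPM. In the same cells the summed level of 3 erythroid markers was 69.9 CPM in Sin3B+/+ and 4.79 CPM in Sin3B-/- cells and that of 6 T and natural killer markers was 27.3 and 14.96 CPM, with Cd3e, Cd3g and Gzma at 0 in both, and their part was not tested. Ifit3 had 10 and 20 UMIs, under the minimum for a call. Ifi27l2a was rare here, with 58 and 31 UMIs and a ratio of -0.47 (-1.16 to 0.17). Cxcl10 had 6 UMIs in 2 Sin3B+/+ cells and 33 UMIs in 4 Sin3B-/- cells, under the minimum for a call. The 18 type I members tested had a median ratio of -0.01, with a median half-width of 0.31.

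Most class I members of LT-HSC-like cells lay slightly above their Sin3B+/+ level at homeostasis, by less than 1.5-fold. H2-K1 was at 1049 and 1226 CPM (0.22, 0.18 to 0.27), H2-D1 at 568 and 606 CPM (0.09, 0.02 to 0.16) and B2m at 1570.4 and 1624 CPM (0.05, 0.01 to 0.09). Tap1 was at 46.2 and 59.6 CPM (0.37, 0.13 to 0.60), Psmb9 at 118 and 137 CPM (0.21, 0.06 to 0.36) and Psmb8 at 200.4 and 222 CPM (0.15, 0.03 to 0.27). Gbp7 was at 86.7 and 105 CPM (0.27, 0.10 to 0.44). Tapbp and Nlrc5 lay below it, with ratios of -0.12 and -0.12 and intervals that held 0. Of 14 type II and class I members tested, 11 had a ratio above 0, the interval lay above 0 for 7 and below 0 for none, and the median was 0.07. That median was -0.0072 with hashtags assigned at 80% of hashtag UMIs and -0.0082 with a stricter cell minimum. The share of all genes with a ratio or interval above 0 was not computed, so these counts have no background. The median ratio over all genes tested in these cells was -0.0091. Together the 16 members summed to 4018 and 4362 CPM (0.12, 0.09 to 0.14). H2-T23, a nonclassical class I gene outside the members that encodes Qa-1, was the 1 higher of 14 other class I genes tested in these cells, where 3.04% of all genes were higher, at 102 and 156 CPM (0.62, 0.47 to 0.77). The median ratio of those 14 genes was -0.017.

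**Figure D3:**
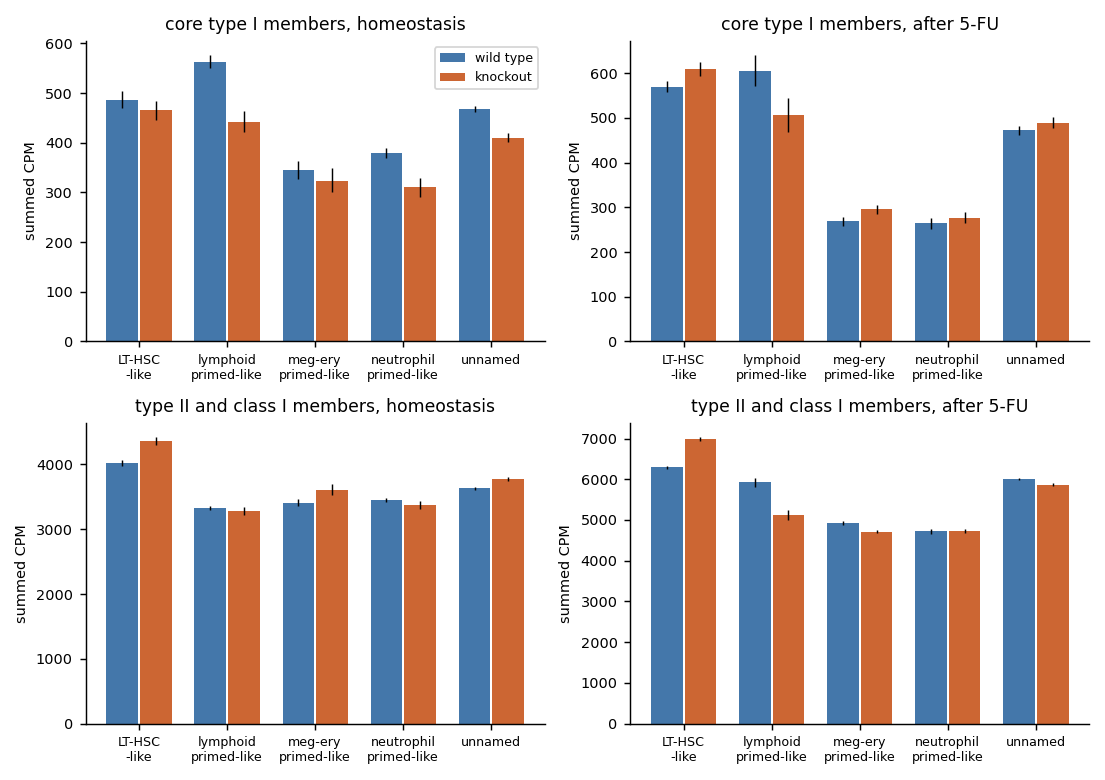
Summed level (CPM of the pool, bars from 0, lines are 95% counting intervals) of the 17 core type I members (top) and the 16 type II and class I members (bottom) in Sin3B+/+ (wild type, blue) and Sin3B-/- (knockout, orange) cells of each class, at homeostasis (left) and after 5-FU (right). Lymphoid primed-like cells had the largest gap for core type I members at homeostasis, 563 against 442 CPM.

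Among the named classes at homeostasis, core type I members differed most in lymphoid primed-like cells, the progenitors biased to B and T cells. Their sum was 563 CPM in Sin3B+/+ and 442 CPM in Sin3B-/- cells (-0.35, -0.43 to -0.27), against 486 and 466 CPM in LT-HSC-like cells (-0.06, -0.14 to 0.01). Over all 19 type I members, Ifitm1 and Ifitm3 included, the ratio of sums in lymphoid primed-like cells was -0.02 (-0.05 to 0.02). In these cells 4 of 18 type I members (Irf7, Oas1a, Bst2 and Ifi27l2a) were lower and 0 higher, where 5.45% of 11606 genes were lower and 3.44% higher. In neutrophil primed-like cells 3 of 18 (Rtp4, Bst2 and Ifi27l2a) were lower and 0 higher, where 4.69% of genes were lower and 2.80% higher. In megakaryocyte-erythroid primed-like cells 3 of 16 (Oasl2, Bst2 and Ifi27l2a) were lower and 1 (Xaf1) was higher, where 4.67% of genes were lower and 3.23% higher. Neutrophil primed-like and megakaryocyte-erythroid primed-like cells had the lowest core sums in either genotype. Neutrophil primed-like cells were at 379 and 310 CPM (-0.29, -0.39 to -0.20). Their sums were 344 and 282 CPM in cluster 8 (-0.29, -0.40 to -0.17), with 650 and 223 cells, and 427 and 418 CPM in cluster 12 (-0.03, -0.21 to 0.14), with 588 and 67 cells. Each cluster raised 4 of the 8 neutrophil primed markers, but the leading genes of cluster 8 were S-phase genes such as Pclaf, Rrm2 and Tk1 and held no neutrophil marker, while Elane and Ms4a3 were among those of cluster 12. After 5-FU the sum of lymphoid primed-like cells was 606 and 506 CPM (-0.26, -0.40 to -0.12), from 222 and 125 cells, and 4 of 29 members were lower and 0 higher, where 5.21% of 7451 genes were lower and 3.19% higher. In megakaryocyte-erythroid primed-like cells after 5-FU the sum was 269 and 296 CPM (0.14, 0.06 to 0.21), and 3 of 18 type I members (Ifit1, Rtp4 and Ifi27l2a) were higher and 0 lower, where 2.31% of genes were higher and 3.61% lower. In neutrophil primed-like cells it was 264 and 277 CPM (0.07, -0.03 to 0.16), and 2 of 17 (Usp18 and Ifi27l2a) were higher and 0 lower, where 2.12% of genes were higher and 3.88% lower. With Ifitm1 and Ifitm3 the ratio of sums after 5-FU was 0.09 (0.02 to 0.16) in lymphoid primed-like, 0.04 (0.00 to 0.07) in megakaryocyte-erythroid primed-like and -0.14 (-0.17 to -0.11) in neutrophil primed-like cells, so the order of the classes held for the core members only. These sums include Bst2 and Ifi27l2a. The summed level of 6 T and natural killer cell markers was 106 CPM in Sin3B+/+ and 72.0 CPM in Sin3B-/- cells over the whole homeostasis library, that of 5 B cell markers was 36.8 and 56.5 CPM, that of 5 mature neutrophil markers was 11.1 and 52.1 CPM (8.67 and 402 CPM in neutrophil primed-like cells), and that of 8 macrophage and dendritic markers was 8.85 and 9.87 CPM. Of these markers only Cd3e was at 0 in both genotypes. After 5-FU the T and natural killer markers were at 206 and 109 CPM and 3 erythroid markers at 7.61 and 13.7 CPM in megakaryocyte-erythroid primed-like cells, and the former at 270.4 and 222 CPM in neutrophil primed-like and 136 and 121 CPM in lymphoid primed-like cells. Their part in the differences was not tested.

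After 5-FU the homeostasis differences of Bst2 and Ifi27l2a were not seen over all kept cells. Bst2 was at 54.2 CPM in Sin3B+/+ and 60.6 CPM in Sin3B-/- cells (0.16, 0.08 to 0.24), and it was higher in 10 of 12 clusters. Ifi27l2a was at 12.5 and 14.0 CPM (0.16, -0.00 to 0.32). Xaf1, which lay above its Sin3B+/+ level at homeostasis, was at 33.9 and 27.2 CPM (-0.32, -0.43 to -0.21). Ifitm3 was at 612 and 723 CPM (0.24, 0.22 to 0.26) and above its Sin3B+/+ level in 12 of 12 clusters, with the interval above 0 in 9. Ifitm1 went the opposite way, at 1166 and 964 CPM (-0.27, -0.29 to -0.26). Isg15 was at 18.9 and 19.1 CPM (0.02, -0.12 to 0.15), Ifit1 at 11.5 and 11.5 CPM (0.00, -0.18 to 0.17) and Irf7 at 17.1 and 16.0 CPM (-0.10, -0.24 to 0.05). Ifit3 was the 1 lower member of 35, with 118 and 61 UMIs (-0.68, -1.15 to -0.22), and 0 members were higher. The Ifit3 call held in 10 of 12 alternative settings, with ratios from -1.07 to -0.26. Over all genes, 4.96% were lower and 3.58% were higher. The median ratio was -0.01 over the type I members and 0.00 over the type II and class I members, beside -0.02 over all 13536 genes tested.

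The type II and class I members over all kept cells after 5-FU showed no common direction. Their sum in lymphoid primed-like cells was 5928 and 5130 CPM (-0.21, -0.25 to -0.17). It was 4718 and 4724 CPM in neutrophil primed-like cells (0.00, -0.02 to 0.02). In the megakaryocyte-erythroid primed-like clusters its ratio lay between -0.10 and -0.02, and LT-HSC-like cells are given below. Irf1 was at 57.9 and 46.1 CPM (-0.33, -0.41 to -0.25) and Gbp3 at 21.0 and 16.4 CPM (-0.36, -0.49 to -0.22). Gbp2 was at 28.5 and 25.7 CPM (-0.15, -0.26 to -0.04). Igtp, a GTPase that acts on the vacuoles of intracellular parasites, was at 24.7 and 27.9 CPM (0.18, 0.06 to 0.29), from 1304 and 1222 UMIs. B2m was at 2088 and 1974 CPM (-0.08, -0.09 to -0.07), while H2-K1 was at 1426 and 1453 CPM and H2-D1 at 1022 and 1039 CPM, with ratios of 0.03 and 0.02. Tap1 was at 112 and 111 CPM and Psmb8 at 412 and 408 CPM, and both intervals held 0. Cxcl10 was at 1.99 and 2.88 CPM (0.53, 0.15 to 0.92), from 105 UMIs in 27 cells and 126 UMIs in 36 cells, with 80 and 85 of them in the 5 top cells.

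In LT-HSC-like cells after 5-FU, 26 of 35 members had a ratio above 0 when all such cells were summed, and the interval lay above 0 for 15 and below 0 for 2. The share of all genes with a ratio or interval above 0 was not computed, so these counts have no background. The median ratio over all genes tested in these cells was 0.0009. Igtp was at 32.5 and 46.0 CPM (0.50, 0.31 to 0.69), Gbp7 at 131 and 164 CPM (0.33, 0.23 to 0.42) and Irgm1 at 35.7 and 44.2 CPM (0.31, 0.12 to 0.50). H2-K1 was at 1631 and 1896 CPM (0.22, 0.19 to 0.25), H2-D1 at 1139 and 1320.2 CPM (0.21, 0.18 to 0.25) and B2m at 2320.0 and 2436 CPM (0.07, 0.05 to 0.09). Tap1 was at 106 and 121 CPM (0.20, 0.09 to 0.31) and Psmb8 at 375 and 397 CPM (0.08, 0.02 to 0.14). Among type I members Ifit1 was at 18.8 and 22.7 CPM (0.28, 0.01 to 0.54), Bst2 at 56.5 and 63.7 CPM (0.17, 0.02 to 0.33) and Isg15 at 23.3 and 23.1 CPM (-0.01, -0.26 to 0.23). Irf7 was at 25.4 and 24.7 CPM, Irf1 at 73.8 and 77.7 CPM, Gbp2 at 42.2 and 45.1 CPM and Xaf1 at 43.8 and 44.6 CPM, and their intervals held 0. Ifit3 had 67 and 37 UMIs (-0.57, -1.20 to 0.03) and Ifi27l2a 120 and 77 UMIs (-0.35, -0.79 to 0.07). These values split around the Sin3B+/+ level. Ifitm1 was at 1527 and 1364 CPM (-0.16, -0.19 to -0.13), and the type I members together had a ratio of 0.02 (-0.00 to 0.04). Cxcl10 was the 1 lower member, with 73 UMIs in 8 Sin3B+/+ cells and 29 UMIs in 10 Sin3B-/- cells (-1.03, -1.72 to -0.41), and 48 of the 73 came from a single cell. Its ratio was 1.57 when hashtags were assigned at a quantile of 0.95, so this call rested on a few cells. No member was higher, where 4.23% of 11664 genes were higher and 3.98% were lower. The medians were 0.12 for type I and 0.13 for type II and class I members.

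The direction of the core type I sum and of the type II and class I sum depended on which LT-HSC-like cells were compared. The class was made of 2 clusters that held very different shares of the genotypes. Cluster 5, with Cyp26b1, Dnm3, Ramp2 and Tm4sf1 among its leading genes, held 6.24% of Sin3B+/+ and 22.5% of Sin3B-/- cells, and Gbp8, an interferon-induced GTPase gene outside the members, was also among its 10 leading genes. Ramp2 and Tm4sf1 are also known from endothelial cells, and Cyp26b1 and Dnm3 were among the leading genes of the unnamed cluster 11 at homeostasis. Cluster 5 raised 7 of the 9 LT-HSC markers, all but Slamf1 and Ctnnal1, while Slamf1 was among those raised in cluster 7. Cluster 5 kept the name because none of its leading genes is on a marker list of another cell type. Cldn5, on the endothelial list, left cluster 11 unnamed with 9 of 9 raised. Cluster 7, led by Smtnl1, Wfdc17 and Meg3, held 21.9% and 11.7%. Type II and class I members summed to 7860.3 CPM in the Sin3B+/+ and 7374 CPM in the Sin3B-/- cells of cluster 5 (-0.09, -0.12 to -0.07), and to 6007 and 6503 CPM in cluster 7 (0.11, 0.10 to 0.13). The core type I members summed to 799 and 606 CPM in cluster 5 (-0.40, -0.48 to -0.31) and to 529 and 614 CPM in cluster 7 (0.22, 0.15 to 0.28). With Ifitm1 and Ifitm3 the type I sums did not lie on opposite sides, at 2799.6 and 2880.5 CPM in cluster 5 (0.04, -0.00 to 0.09) and 2897 and 2961 CPM in cluster 7 (0.03, 0.00 to 0.06). Isg15 was at 37.7 and 20.8 CPM in cluster 5 (-0.86, -1.29 to -0.42) and at 20.7 and 25.9 CPM in cluster 7 (0.32, -0.01 to 0.64). Ifit1 had ratios of -0.46 (-0.91 to 0.02) and 0.54 (0.19 to 0.88), and Bst2 of -0.37 (-0.63 to -0.10) and 0.25 (0.04 to 0.45). The ratios of these 3 genes had opposite signs in the 2 clusters, with intervals that left out 0 in both for Bst2 only. Ifi27l2a, under the minimum for a call in cluster 5, had 14 and 13 UMIs there (-1.65, -2.86 to -0.46) and 106 and 64 in cluster 7 (0.46, -0.01 to 0.92). Ifitm1 had the opposite pattern, at 0.19 (0.13 to 0.26) and -0.18 (-0.22 to -0.14). Igtp was at 63.9 and 60.7 CPM in cluster 5 and at 26.8 and 28.2 CPM in cluster 7, and both intervals held 0. Xaf1 was at 77.4 and 41.8 CPM in cluster 5 (-0.89, -1.19 to -0.59) and at 37.7 and 48.0 CPM in cluster 7 (0.35, 0.11 to 0.59). In cluster 5, 4 of 18 type I and 2 of 16 type II and class I members were lower and 0 were higher, where 3.44% of 9923 genes were lower and 4.06% were higher. The type I ones were Isg15, Xaf1, Ifit2 (-1.13, -1.62 to -0.63) and Ifit3 (-2.06, -2.81 to -1.33), the last from 40 and 28 UMIs. The others were Gbp3 (-0.60, -0.98 to -0.20) and Cxcl10 (-2.80, -3.55 to -2.12). Cxcl10 had 60 and 25 UMIs, and a single cell held most of those of Sin3B+/+ cells. In cluster 7 no member was higher or lower, where 3.17% and 4.48% of 11000 genes were. The summed level of 6 T and natural killer markers in LT-HSC-like cells was 87.8 CPM in Sin3B+/+ and 30.2 CPM in Sin3B-/- cells, with Cd3e, Cd3g and Gzma at 0 in both, and that of 5 endothelial markers was 15.9 and 37.1 CPM. Their part was not tested.

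Other genes of the pathway were taken by list. The 9 interferon ligand genes held 10 and 4 UMIs over all kept cells at homeostasis and 2 and 1 after 5-FU, and Ifnb1 and Ifng were at 0 in each pool. With 84284046 Sin3B+/+ UMIs at homeostasis the depth allows only that such transcripts were rare in these cells, and other bone marrow cells were not sampled. Of 15 receptors and signal transducers, 0 were higher or lower over all kept cells in either condition, where 5.53% and 5.10% of genes were at homeostasis and 3.58% and 4.96% after 5-FU. In LT-HSC-like cells at homeostasis Irf8 was the 1 lower gene of the list, at 8.19 and 5.19 CPM (-0.65, -1.39 to 0.04), where 4.21% of genes were lower. Ifnar1 was at 33.6 and 40.8 CPM at homeostasis and at 49.6 and 44.5 CPM after 5-FU. In LT-HSC-like cells after 5-FU, Socs3, a feedback inhibitor of JAK kinases, was the 1 lower gene, where 3.98% of genes were lower, at 63.5 and 33.5 CPM, and within clusters it was at 13.1 and 3.78 CPM in cluster 5, from 26 and 22 UMIs, and at 72.7 and 69.7 CPM in cluster 7.

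Among 32 other type I genes in the files, Slfn2, a Schlafen gene needed for the quiescence of T cells, was higher in Sin3B-/- cells in each of the 4 comparisons below. It was at 7.15 and 16.1 CPM over all kept cells at homeostasis (1.17, 0.999 to 1.34), at 7.03 and 12.6 CPM after 5-FU (0.84, 0.65 to 1.04), and at 16.5 and 37.5 CPM and 13.5 and 30.1 CPM in the LT-HSC-like cells of the 2 conditions. Within those cells after 5-FU it was at 27.7 and 41.1 CPM in cluster 5 (0.56, 0.14 to 1.02) and at 10.9 and 16.7 CPM in cluster 7 (0.62, 0.19 to 1.04). Oas2 and Oasl1 were the 2 lower genes of 30 tested at homeostasis, near the 5.10% of all genes that were lower, at 6.21 and 4.01 CPM and at 6.95 and 4.35 CPM. After 5-FU 2 of 31 were higher (Phf11d and Slfn2) and 2 lower (Ifi204 and Ifit3b) over all kept cells, where 3.58% and 4.96% of genes were, and 4 of 29 were higher (Oas1g, Phf11d, Slfn2 and Zbp1) and 0 lower in LT-HSC-like cells, where 4.23% and 3.98% of genes were. Of the other type II genes, 0 of 9 were higher or lower over all kept cells at homeostasis, where 5.53% of genes were higher and 5.10% lower. In LT-HSC-like cells 0 of 9 were higher and 2 lower (Irgm2, 33.8 and 21.3 CPM, and Ciita, 9.39 and 4.39 CPM), where 3.04% and 4.21% of genes were. After 5-FU 4 of 13 were higher (Gbp4, Gbp6, Gbp8 and Gbp9) and 1 lower (Cxcl9) over all kept cells, where 3.58% and 4.96% of genes were. Of the 13 tested in LT-HSC-like cells after 5-FU, 8 were higher (Gbp4, Gbp6, Gbp8, Gbp9, Irgm2, Iigp1, Tgtp1 and Tgtp2) and Cxcl9 was lower, where 4.23% of all genes were higher and 3.98% lower. Iigp1, an immunity-related GTPase, was at 68.8 and 123 CPM. Within cluster 5, 0 of 12 were higher and 1 lower (Ciita, -0.80, -1.62 to 0.09), where 4.06% and 3.44% of genes were. The list summed to 495 and 477 CPM there, with a median ratio of 0.03. Irgm2 (0.584, 0.12 to 1.10) and Gbp6 (0.571, -0.06 to 1.30) lay just under the 1.5-fold cut. Within cluster 7, 3 of 10 were higher (Gbp8, Gbp9 and Tgtp2) and 0 lower, where 3.17% and 4.48% of genes were, and the sum was 219 and 256 CPM. Iigp1 was at 169 and 174 CPM in cluster 5 and at 50.6 and 61.5 CPM in cluster 7. Cxcl9 had 47 UMIs in the Sin3B+/+ and 2 in the Sin3B-/- cells of cluster 5. Of the other class I genes, 0 of 14 tested at homeostasis and 0 of 15 tested after 5-FU were higher or lower over all kept cells. Over all genes, 5.53% were higher and 5.10% lower at homeostasis, and 3.58% and 4.96% after 5-FU. Tgtp1 and Tgtp2, the Gbp genes and the class I heavy chains are families of near-identical copies, whose reads can be split or lost in counting.

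To see whether the type I response sat in a few cells or was spread over many, the core type I genes with a UMI were counted in each cell after thinning to 4000 UMIs. At homeostasis 933 of 9844 Sin3B+/+ cells (9.48%, 8.91 to 10.1) and 271 of 3910 Sin3B-/- cells (6.93%, 6.15 to 7.77) had 4 or more, a difference of -2.55 percentage points (-3.51 to -1.54). Without Bst2 and Ifi27l2a the shares were 5.77% and 5.32% and the difference was -0.45 (-1.27 to 0.42). After 5-FU the shares were 10.1% (9.24 to 11.0) and 10.9% (9.87 to 12.1), a difference of 0.82 (-0.58 to 2.25). Unthinned, 30.8% of Sin3B+/+ and 23.6% of Sin3B-/- cells passed at homeostasis, against 40.9% and 51.7% in the 5-FU library, where the Sin3B-/- cells were deeper. No class was taken to lack these genes, so no background share of cells was set. In near-empty barcodes of the homeostasis library, Isg15 was at 11.0 CPM and Bst2 at 55.0 CPM, and the part of free RNA in the shares was not tested. Cells under 4000 UMIs were left out, 4.70% and 5.53% at homeostasis and 10.5% and 5.07% after 5-FU.

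**Figure D4:**
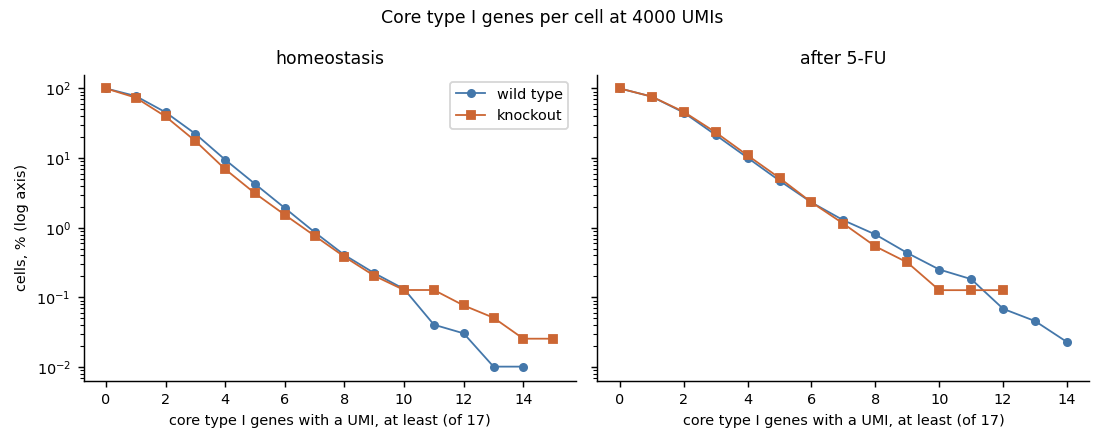
Share of cells (%, log axis) with at least the number of core type I genes given on the x axis (of 17), at 4000 UMIs per cell, for Sin3B+/+ (wild type, blue circles) and Sin3B-/- (knockout, orange squares) cells at homeostasis (left) and after 5-FU (right). At homeostasis 9.48% of Sin3B+/+ and 6.93% of Sin3B-/- cells had 4 or more, and 0.406% and 0.384% had 8 or more.

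A small number of cells in each pool carried many core genes at once. At homeostasis 40 Sin3B+/+ cells (0.406%, 0.290 to 0.553) and 15 Sin3B-/- cells (0.384%, 0.215 to 0.632) had 8 or more, and after 5-FU 35 (0.801%, 0.559 to 1.11) and 17 (0.541%, 0.315 to 0.864). At homeostasis each named class held some of them in both genotypes. They were 4 of 1047 and 4 of 790 LT-HSC-like and 2 of 455 and 1 of 232 megakaryocyte-erythroid primed-like cells. In neutrophil primed-like cells they were 3 of 1214 and 1 of 282, and in unnamed cells 18 of 5511 and 7 of 2126. Lymphoid primed-like cells held 13 of 1617 and 2 of 480 (0.804% and 0.417%), a difference of -0.39 percentage points (-1.03 to 0.75). In these 55 cells Cxcl10, which was not used to choose them, averaged 0.945 UMIs per thinned cell against 0.00248 in the other 13699. Gbp2 averaged 0.345 against 0.0951, and Ly6a 1.11 against 0.334, while H2-K1 averaged 4.24 against 3.75 and B2m 7.25 against 5.51. Igtp averaged 0.0182, from a single UMI. In the 52 such cells after 5-FU, Cxcl10 averaged 1.21 against 0.00281, Gbp7 1.94 against 0.420, Gbp2 0.788 against 0.122 and Igtp 0.923 against 0.111. In both conditions the ratio between these cells and the others was larger for Cxcl10 and Gbp2 than for H2-K1 and B2m. How many of these cells held Cxcl10 was not counted. Few cells held most of its UMIs in either condition, as given above, so its averages may rest on a few cells.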

How the data were processed

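LSK cells were profiled by droplet-based single-cell RNA-Seq, with 1 library per condition. Per the labels and the study's methods, the authors aligned reads and counted UMIs with Cell Ranger, in different versions for the 2 libraries, and the submitters' notes name the mouse build mm9, Seurat and DESeq2. The deposited matrices hold raw counts of 32285 genes and 2 hashtags per barcode. Which hashtag marked which genotype is given in the methods of the study. The homeostasis matrix lists all 6794880 barcodes, of which the 23931 with at least 2921 UMIs were used as cells. The 5-FU matrix lists 12753 barcodes, and 76 cell barcodes occurred in both libraries. The homeostasis matrix has no gene names of its own here and was read with the 5-FU gene list, after the row order of both was checked (correlation of log counts 0.926, and 0.395 with a shift of 1 row).

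Singlets were assigned with HTODemux at a quantile of 0.99, which also removed barcodes with both hashtags. Barcodes called negative for both were dropped, 6283 of 23931 at homeostasis (26.3%) and 3290 of 12753 after 5-FU (25.8%). Singlets numbered 11579 Sin3B+/+ and 4628 Sin3B-/- at homeostasis and 5302 and 3727 after 5-FU. The 2 genotypes carried different hashtag antibodies, and the effect of losing cells by tag was not tested. Doublets within a genotype were not called. The top and bottom 2% of cells by UMIs, by genes detected and by mitochondrial share of UMIs were removed. Cells with at least 2 UMIs of 9 lineage genes were removed as well. Cells were clustered on 2000 variable genes, 30 components and 20 neighbours by the Leiden method at resolution 1, leaving out the members, the pathway lists, cell cycle, histone, sex-linked and genotype-dependent genes. UMIs were summed per genotype and class, with 0.5 added before the log2 ratio. Intervals at 95% are exact (Poisson for levels, Clopper-Pearson for ratios and shares) or Newcombe's for a difference of shares, and cover counting error only. Only reads of a single gene are counted, so near-identical copies are uncertain. Promoter stretches are from RefSeq (GRCm38.p6) and gene positions from GENCODE (GRCm38), and neither was compared with coordinates of the authors' build. The calling of changes and the intervals were tested on simulated pool sums drawn with counting error only. That test cannot show how they behave under spread between cells or mice, and the pooling of cells was not part of it. Named with values in all kept cells and in LT-HSC-like cells are members past 1.5-fold (up to 12 per condition, by size) and Isg15, Ifit1, Ifit3, Irf7, Gbp2, Irf1, Cxcl10, B2m, H2-K1, H2-D1, Psmb8 and Tap1 whatever their values. For the primed-like classes no values of single members are given. Other members, and genes outside the members, were named after their values were seen. The members and lists were chosen with earlier results of these data known. Values of some genes are not reported here. Alternatives in the assignment, filters, clustering, thresholds and scaling were tried, and the closing section gives their effect.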

Additional observations from a re-analysis of the deposited data

Results flagged for a closer look

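Some members lay on opposite sides of the Sin3B+/+ level in the 2 conditions, with both counting intervals clear of 0. The difference between conditions was not tested, and the conditions are separate libraries. Over all kept cells the log2 ratio at homeostasis and after 5-FU was -1.04 and 0.16 for Bst2, 0.49 and -0.32 for Xaf1, 0.57 and -0.68 for Ifit3, 0.16 and -0.27 for Ifitm1, -0.030 and 0.24 for Ifitm3, and 0.050 and -0.081 for B2m. In LT-HSC-like cells it was -0.80 and 0.17 for Bst2 and 0.063 and -0.16 for Ifitm1, but within cluster 5 of these cells after 5-FU Bst2 was at -0.37 (-0.63 to -0.10) and Ifitm1 at 0.19 (0.13 to 0.26). The LT-HSC-like pools of the 2 conditions were composed differently. The homeostasis pool left out the unnamed cluster 11, while the 5-FU pool held cluster 5, and both clusters had Cyp26b1 and Dnm3 among their leading genes.

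In the near-empty barcodes of the homeostasis library, which no comparison used, 10 members were above their level in cells, and for 5 of them the 95% counting interval lay above it. The levels of these 5 were 86.1 CPM for Irf1, 1059 CPM for H2-K1, 634.7 CPM for H2-D1, 79.6 CPM for Tapbp and 14.2 CPM for Cxcl10, against 58.2, 916.2, 488.7, 64.2 and 1.61 CPM in cells. The others were Ifi27l2a (31.7 and 27.6 CPM), Irf7, Xaf1, Tap1 and Ifit3. Bst2 was at 55.0 CPM there and 67.4 CPM in cells.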

How the results depend on the processing

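No paired analysis was possible because each genotype was 1 pool per condition, with no replicate to pair or leave out. Of 265 values under an alternative, 214 stayed within 1.5 times (counts), the median half-width of the members' intervals (medians) or the counting interval (share differences), while 46 moved further and 5 changed sign from a median beyond that half-width, and the cause was not tested. Bst2 at homeostasis ranged from -1.18 to -1.01 over all kept cells (lower in 14 of 14 alternatives) and from -1.07 to -0.76 in LT-HSC-like cells (24 of 24).

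In LT-HSC-like cells at homeostasis the count of higher members was 0 with an 80% hashtag rule, a stricter cell minimum or thinning to 4000 UMIs, 2 with interferon genes or genotype genes kept in the clustering or another Leiden seed, 3 with a minimum of 10 UMIs and 4 with none. The count of lower members was 2 with the 80% hashtag rule, no lineage removal, no trimming, resolution 0.5 or 2 or another seed, and 3 with the stricter cell minimum or centring per genotype. The homeostasis difference in the share of cells with 4 or more core genes was -1.26 with the 80% hashtag rule, -7.15 without thinning, -4.70 for 3 genes, -0.39 for 6 genes and -0.45 without Bst2 and Ifi27l2a, and after 5-FU it was 10.8 without thinning.

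In LT-HSC-like cells after 5-FU the count of higher members was 1 with a quantile of 0.95, resolution 2 or interferon genes kept. The count of lower members was 0 under these 3, the 80% hashtag rule, no lineage removal, centring per genotype, 3 other seeds, a minimum of 200 UMIs and cluster 7 alone, 2 with genotype genes kept, equal cells per cluster or the mean of per-cell CPM, 5 at resolution 0.5, and 6 with a 2-fold marker rule or cluster 5 alone. The type I median there was -0.25 at resolution 0.5, -0.36 with the marker rule or cluster 5 alone and -0.089 with genotype genes kept. The type II and class I median was -0.15, -0.11 and -0.077 under the same settings and -0.011 with equal cells per cluster. The Cxcl10 log2 ratio, LT-HSC-like cells, after 5-FU, was 1.57 with the 0.95 quantile, 0.00331 without lineage removal and 0.047 with centring. The settings with genotype genes kept, centring, other seeds, single clusters, unnamed clusters with LT-HSC markers added, and without Bst2 and Ifi27l2a were chosen after seeing the data.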
